A study of Mus musculus with 16 samples.

Results

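The fatty acid binding protein cluster is a run of 5 genes on mouse chromosome 3, namely Fabp5, Pmp2, Fabp9, Fabp4 and Fabp12, out of 22367 protein-coding genes in the annotation. The genes were chosen by name from earlier results of these same ChIP-seq lists, so the values below describe the locus and carry no test. A single window was taken from 50 kb before the first gene to 50 kb after the last, at mm9 chr3:9962548-10351183, which is 388636 bp long. In it lie 130 of the 479799 called islands of all 16 lists, of which 101 are H3K27ac, 22 are H3K4me1, 7 are SETD5-V5 and 0 are endogenous SETD5. An island is a stretch of the genome where a peak caller found more ChIP reads than expected by chance, and a place outside islands was below the caller's threshold. The endogenous SETD5 lists are short, with 2132 islands at 0 h and 3293 at 6 h over the whole genome. Their 0 in this window is therefore not read as absence of the protein.

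All lists come from 3T3-L1 cells, a clonal mouse preadipocyte line that turns into adipocytes when confluent cells are given the MDI cocktail of isobutylmethylxanthine, dexamethasone and insulin. H3K27ac, a mark of active promoters and enhancers, was profiled in cells with an empty retroviral vector and in cells with retroviral SETD5-V5 before MDI (day 0) and 48 h after it (day 2), with replicates A and B of each. SETD5-V5 itself was profiled with a V5 antibody at 0 h and 6 h of MDI, also with replicates A and B. For replicate A of these V5 lists the virus label holds only a dash. The tagged SETD5 was driven by a weak viral promoter and is present in addition to the cells' own SETD5, a SET-domain protein found with the NCoR-HDAC3 corepressor complex. Endogenous SETD5, at 0 h and 6 h, and H3K4me1, a mark shared by primed and active enhancers, at 0 h and 48 h, have 1 list per time. The endogenous lists carry a dash as virus label, and the H3K4me1 lists are labelled as SETD5 virus while the study presents them without naming a vector, so which cells gave them is uncertain. The study describes A and B of H3K27ac and SETD5-V5 as biological replicates. With 2 lists against 2, an exact two-sided permutation test could not go below p = 0.333 in any case.

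Fatty acid binding proteins are small cytosolic carriers that hold a fatty acid or another lipid inside a barrel and move it between membranes, enzymes and nuclear receptors. Fabp4, also called aP2, is the carrier of fat cells and one of the most used markers of adipocyte differentiation, and a fat-specific enhancer some kb upstream of it is a classical target of PPARγ and C/EBP proteins. Fabp5 is the epidermal form, which macrophages and fat cells also make, Pmp2 is a protein of peripheral nerve myelin, Fabp9 belongs to sperm, and Fabp12 is a less studied relative. Fabp5 (ENSMUSG00000027533.9, chr3:10012548-10016607, plus strand) lies apart from the others by 163 kb. The remaining 4 are on the minus strand: Pmp2 (ENSMUSG00000052468.6, chr3:10179851-10183885), Fabp9 (ENSMUSG00000027528.7, chr3:10193626-10197222), Fabp4 (ENSMUSG00000062515.2, chr3:10204347-10208576) and Fabp12 (ENSMUSG00000027530.8, chr3:10244209-10301183). Gaps of 9.74 kb, 7.12 kb and 35.6 kb separate them in that order, so Fabp12 lies upstream of Fabp4.

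The stretches of the locus that carry the results below are shown here from the mm9 genome, 5′ to 3′ on the strand of the gene, each 250 bases long. The promoter stretches end at the base before the annotated start site: Fabp5 at chr3:10012298-10012547 and Fabp12 at chr3:10301184-10301433. The upstream stretch of Fabp4, chr3:10213680-10213929, is intergenic and lies inside the part that was in H3K27ac islands in all 4 lists at 48 h. The intragenic stretch, chr3:10206447-10206696, is in an intron of Fabp4 and lies inside the part that both SETD5-V5 lists shared at 6 h. Capitals mark matches on either strand to the C/EBP letters TTGCNNAA and to the DR1 pattern of PPAR-RXR, a pair of AGGTCA sites 1 base apart, with up to 3 mismatches in the upstream stretch and up to 2 in the others.
Fabp4 upstream stretch: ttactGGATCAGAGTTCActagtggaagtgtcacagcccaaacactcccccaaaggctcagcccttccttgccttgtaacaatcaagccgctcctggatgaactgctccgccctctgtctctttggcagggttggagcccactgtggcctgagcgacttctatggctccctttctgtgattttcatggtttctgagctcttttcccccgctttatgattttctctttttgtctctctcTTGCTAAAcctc
Fabp4 intragenic stretch: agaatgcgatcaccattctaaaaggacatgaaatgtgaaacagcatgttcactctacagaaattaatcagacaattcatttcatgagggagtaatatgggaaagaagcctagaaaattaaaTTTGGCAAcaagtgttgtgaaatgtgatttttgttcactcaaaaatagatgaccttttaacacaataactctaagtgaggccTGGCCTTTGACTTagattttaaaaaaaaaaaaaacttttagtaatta
Fabp5 promoter: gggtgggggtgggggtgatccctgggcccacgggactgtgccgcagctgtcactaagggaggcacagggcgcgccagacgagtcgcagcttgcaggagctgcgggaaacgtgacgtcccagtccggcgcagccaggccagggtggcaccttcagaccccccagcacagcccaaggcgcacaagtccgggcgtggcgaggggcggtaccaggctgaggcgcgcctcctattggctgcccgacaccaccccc
Fabp12 promoter: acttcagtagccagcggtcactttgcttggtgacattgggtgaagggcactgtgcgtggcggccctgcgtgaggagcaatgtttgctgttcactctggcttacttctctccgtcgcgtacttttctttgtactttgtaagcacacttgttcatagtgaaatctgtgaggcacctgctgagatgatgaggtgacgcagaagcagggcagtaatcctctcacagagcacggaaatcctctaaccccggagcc
The upstream stretch was placed to span its C/EBP match and its DR1 match, which has 3 mismatches, and the intragenic stretch was centred on its C/EBP match, beside which lies a DR1 match with 2 mismatches. Holding a match was therefore fixed for these stretches and no rarity is read from it. The Fabp5 and Fabp12 promoter stretches, placed by the start site alone, held none of these letters. For scale, the C/EBP letters occur in 9.16% of 22362 promoter stretches of that length, and DR1 matches in 2.71% with up to 2 mismatches and in 19.2% with up to 3. Over the centres of 31291 H3K27ac islands of empty-vector replicate A at 48 h, the shares were 12.1%, 3.54% and 22.2%. The part around the upstream stretch shared by the 4 lists holds 4 DR1 matches with up to 3 mismatches. A match is a description of the letters and not a shown binding site.

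In empty-vector cells the locus went from sparse to wide H3K27ac within 48 h. Islands covered 3.08% and 3.55% of the window at 0 h (replicates A and B, mean 3.31% ± 0.328, SD, n = 2) and 22.4% and 15.3% at 48 h (18.9% ± 5.02). The difference was 15.6 percentage points, or 5.70-fold, with 19.3 points in A and 11.8 points in B, and the lists of each time did not overlap. The same lists in full covered 121 and 103 Mb at 0 h and 122 and 111 Mb at 48 h. The number of islands in the window rose less than their length, from 7 and 9 to 16 and 15, while the longest grew from 3200 and 3600 bp to 15000 and 14800 bp.

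In SETD5-V5 cells the same comparison was nearly flat. Islands covered 5.81% and 7.10% of the window at 0 h (6.45% ± 0.910) and 6.69% and 7.92% at 48 h (7.30% ± 0.873), a difference of 0.849 points with groups that overlapped. With only islands above the median score of their list it was -0.360 points. At 48 h the SETD5-V5 lists lay below both empty-vector lists, with a difference of -15.7 points in A and -7.41 points in B (mean -11.6 points). At 0 h the order was the other way, with SETD5-V5 lists higher by 2.73 and 3.55 points. According to the study's reporting summary each SETD5-V5 H3K27ac library was sequenced more deeply than each empty-vector one, and the part of depth in these differences was not tested. The SETD5-V5 lists held 13 and 10 islands in the window at 0 h and 16 and 15 at 48 h.

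**Figure D1:**
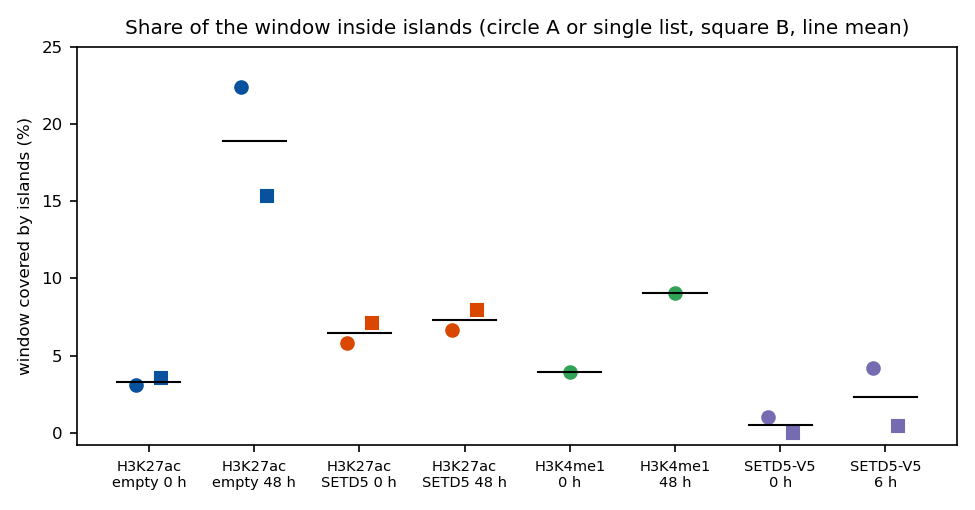
Share of the window inside called islands, in percent, for each list except the 2 of endogenous SETD5, which have no island there (circles replicate A or a single list, squares replicate B, black line the mean). The empty-vector H3K27ac lists at 48 h stand at 22.4% and 15.3%, above the 6 other H3K27ac lists, which lie between 3.08% and 7.92%.

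**Figure D2:**
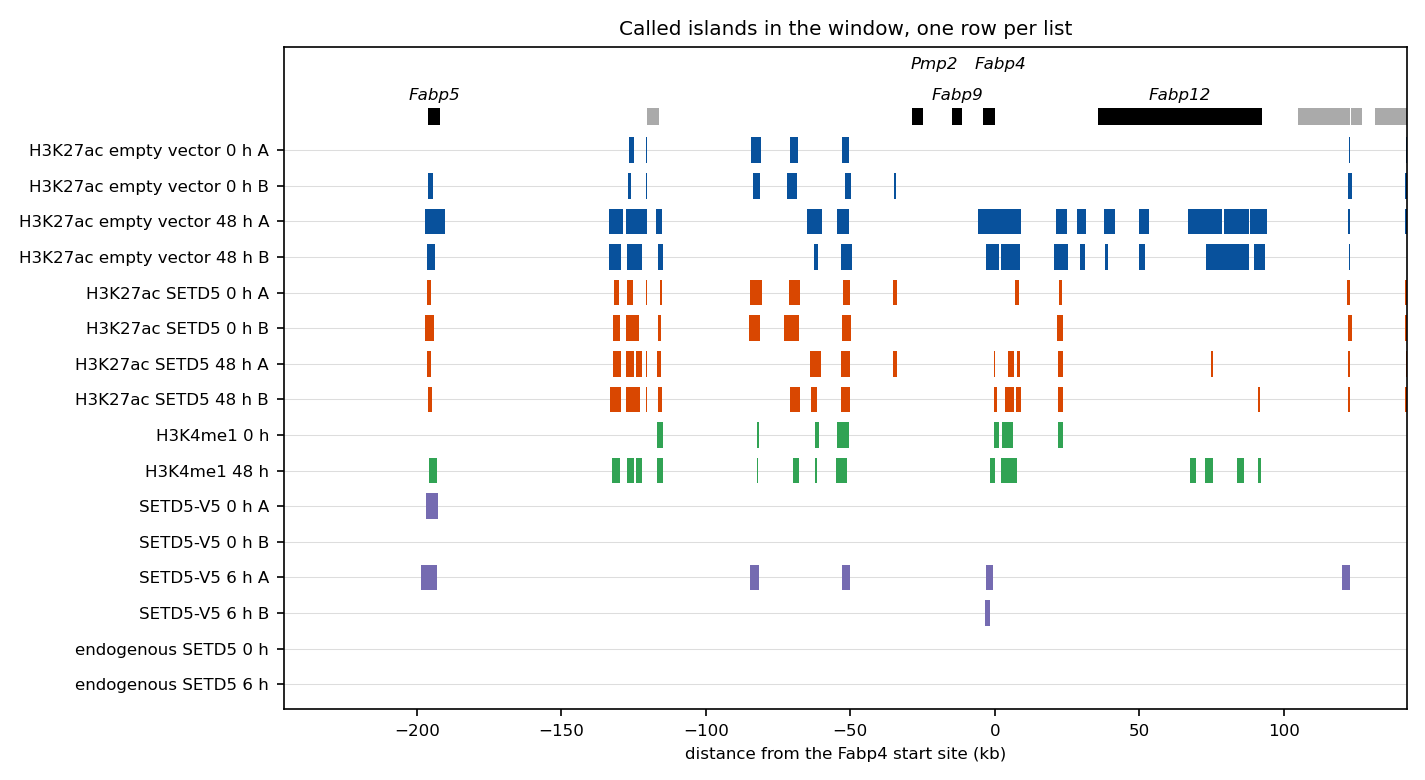
Islands of the 16 lists along the window, 1 row per list, with distance from the Fabp4 start site in kb on the horizontal axis, cluster genes in black and other protein-coding genes in grey. The broad blue blocks at Fabp4 and across Fabp12 appear in both empty-vector lists at 48 h. Both endogenous SETD5 rows, which come from short lists, are empty.

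Read together, the 8 H3K27ac lists outline 18 separate elements in the window, numbered here along the chromosome. In empty-vector cells 10 of the 18 were absent from both lists at 0 h and present in both at 48 h, 2 went the opposite way, and 13 were longer in both lists at 48 h than in both at 0 h. With SETD5-V5, 11 elements were shorter at 48 h than in both empty-vector lists, and 3 of these 11 had no island at all. 4 elements were longer in both SETD5-V5 lists at 48 h than in both at 0 h, among them the Fabp4 element. No genome-wide share of elements stands beside these counts, so they describe this window only.

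Fabp4 showed the largest block that includes a start site. The element chr3:10202601-10217800, which spans the gene and its upstream side, had no H3K27ac in either empty-vector list at 0 h and 15000 and 11400 bp of it at 48 h. The promoter, taken as 1000 bases before to 100 after the start, was then covered over its full 1101 bases in both lists, and the gene body over 100% and 75.1%. In replicate A a single island, chr3:10202601-10217600, reached a score that only 6.96% of the islands of that list exceeded, and in replicate B the gene side and the upstream side were separate islands, exceeded by 33.1% and 13.3%. In replicate B the upstream island ranked above the one over the start.

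With SETD5-V5 the Fabp4 element had 3600 and 6200 bp at 48 h, below both empty-vector lists, but it was not absent. It had 1400 bp in replicate A and none in replicate B at 0 h, so it still gained length with time in both replicates. Its islands at 48 h were in the same 3 places in A and B: at the start site, over chr3:10208201-10208600 in A and chr3:10208201-10209400 in B, then over chr3:10213001-10215200 in A and chr3:10212201-10215200 in B, and last at the upstream edge. The middle one, shared by the 4 lists at 48 h from 4.42 to 6.62 kb upstream of the start, holds the printed upstream stretch. It ranked in the middle of its lists, with 47.6% and 44.5% of islands scoring higher. Over the promoter window, 125 and 925 of 1101 bases were covered.

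Fabp12 gained the most H3K27ac of the 5 gene bodies in bases, being also the longest gene, and had almost none with SETD5-V5. Islands covered 31783 and 20983 bp of its gene body in empty-vector cells at 48 h, or 55.8% and 36.8% of the gene, against 0 bp in both lists at 0 h. With SETD5-V5 the gene body had 0 bp at 0 h and 600 bp in each list at 48 h. These short islands both lay in introns but in different places, 17.2 kb from the start in A and 0.783 kb from it in B. Of the islands of their lists, 93.8% and 99.9% scored higher. The main part is an intronic element, chr3:10275401-10296400, with 20400 and 14800 bp in empty-vector cells. Its islands ranked high, with 11.6% of islands above the stronger of those in A and 12.02% above the single one in B. The element over the start, chr3:10297001-10302800, had 5800 and 4000 bp and covered the full promoter window in both lists. It ranked lower, with 46.5% and 46.3% of islands scoring higher. Of the 5 annotated transcripts, 3 begin further downstream, and the promoter windows of these 3 held no island in any list.

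Fabp5 was the member with a promoter island in both SETD5-V5 lists at 0 h, while empty-vector cells had none in replicate A and one over 48 of the 1101 promoter bases in replicate B. Within 10 kb of its start site the islands covered 0 and 1.6 kb in empty-vector cells at 0 h and 6.8 and 2.8 kb at 48 h, so the times did not overlap but replicate B began above 0. In SETD5-V5 cells the values were 1.4 and 2.8 kb at 0 h and 1.2 and 1.4 kb at 48 h. Every H3K27ac list except empty-vector 0 h replicate A had an island on the promoter. At 48 h both SETD5-V5 lists were below both empty-vector lists, by far more in replicate A than in replicate B.

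Fabp9 and Pmp2 had no island of any of the 4 antibodies over their promoter or gene body in the 16 lists. Within 10 kb of the Fabp9 start site, empty-vector cells had 4.62 and 1.82 kb of H3K27ac at 48 h and none at 0 h, and SETD5-V5 cells had none at either time. All of it belongs to the Fabp4 element, whose gene begins further up the chromosome and ends 7.12 kb before Fabp9. Pmp2 had an island of 1400 bp at 0 h and 1200 bp at 48 h in SETD5-V5 replicate A, in an element 9.29 kb from its start, and 600 bp of that element in empty-vector replicate B at 0 h, with no order by vector or time.

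**Figure D3:**
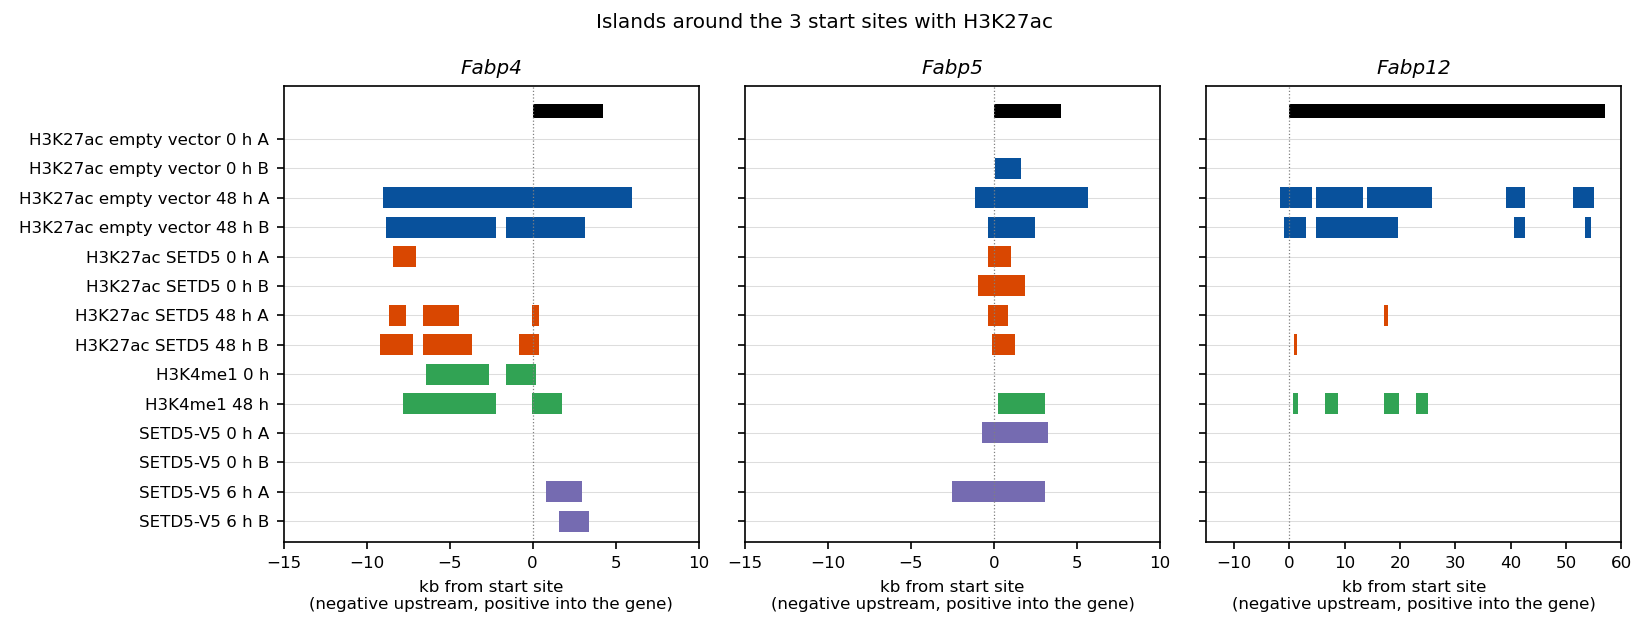
Islands around the Fabp4, Fabp5 and Fabp12 start sites, with distance from the start in kb (negative upstream, positive into the gene, gene body in black) and 1 row per list. At Fabp4 the upstream island, 4.42 to 6.62 kb from the start, is present in all 4 H3K27ac lists at 48 h, whereas the blocks within Fabp12 have no counterpart longer than 600 bp in the SETD5-V5 rows.

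**Figure D4:**
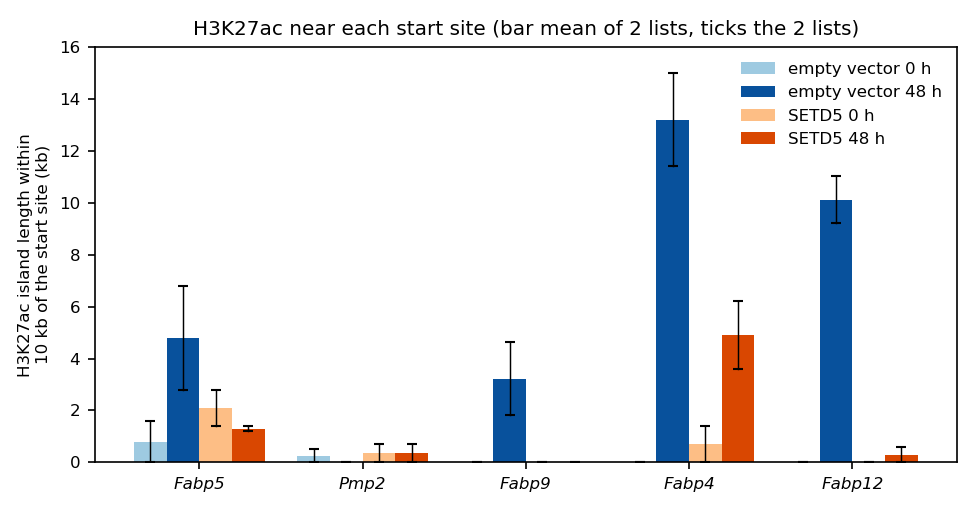
Length of H3K27ac islands within 10 kb of each start site, in kb, as the mean of 2 lists (bars) with both lists (ticks). Fabp4 and Fabp12 rise to means of 13.2 and 10.1 kb in empty-vector cells at 48 h, against 4.9 and 0.3 kb in SETD5-V5 cells.

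Counted over the 5 members and set beside all protein-coding genes, the values were as follows. An H3K27ac island arose at the promoter between 0 h and 48 h in both empty-vector replicates at 2 members, Fabp4 and Fabp12, against 1.85% of all genes. It was present in both empty-vector lists at 48 h and in neither SETD5-V5 list at 1 member, Fabp12, against 0.63%, and at 3 (Fabp4, Fabp5 and Fabp12) when only islands above the median score of their list were used. In SETD5-V5 cells 1 promoter, that of Fabp4, gained an island by 48 h, against 1.35%, and 0 members had a promoter island at 0 h in both SETD5-V5 lists and in neither empty-vector list, against 0.742%. Within 10 kb of the start, both empty-vector lists at 48 h exceeded both at 0 h at 4 members, all but Pmp2, against 20%. The same 4 had less H3K27ac in both SETD5-V5 lists than in both empty-vector lists at 48 h, against 16.9%. At 0 h, 0 members had more in both SETD5-V5 lists, against 9.89%. The members were chosen with these contrasts known and share neighbouring islands, so nothing is read from the counts against these shares.

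At 0 h, 7 of the 18 elements were longer in both SETD5-V5 lists than in both empty-vector lists, and none of these 7 included a start site of the cluster. This count, too, has no genome-wide share beside it. The Fabp5 promoter window was also covered over more bases in SETD5-V5 cells, 448 and 1048 against 0 and 48. Elements 2, 4 and 11, at chr3:10075201-10079800, chr3:10091201-10093800 and chr3:10229001-10233800, were present in both SETD5-V5 lists and in neither empty-vector list at 0 h. They lie between genes except the middle one, which overlaps an exon of the neighbour Gm9833. All 3 were also among the 10 that empty-vector cells gained by 48 h, when they had 4600 and 4200 bp, 2400 and 1800 bp, and 3600 and 4800 bp. The last one lies 20.4 kb upstream of the Fabp4 start and had 1000 and 2200 bp in SETD5-V5 cells at 0 h.

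A pair of intergenic elements between Fabp5 and Pmp2 ran in the opposite direction. The element chr3:10123401-10128000 had 3200 and 2200 bp in empty-vector cells and 4200 and 3800 bp in SETD5-V5 cells at 0 h, and 0 bp in all 4 lists at 48 h. The element chr3:10135601-10141200 had 3000 and 3600 bp in empty-vector cells at 0 h and 0 bp at 48 h. In SETD5-V5 cells it fell from 3800 to 0 bp in replicate A and from 5200 to 3600 bp in replicate B, so its loss was full in 1 of 2 replicates.

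**Figure D5:**
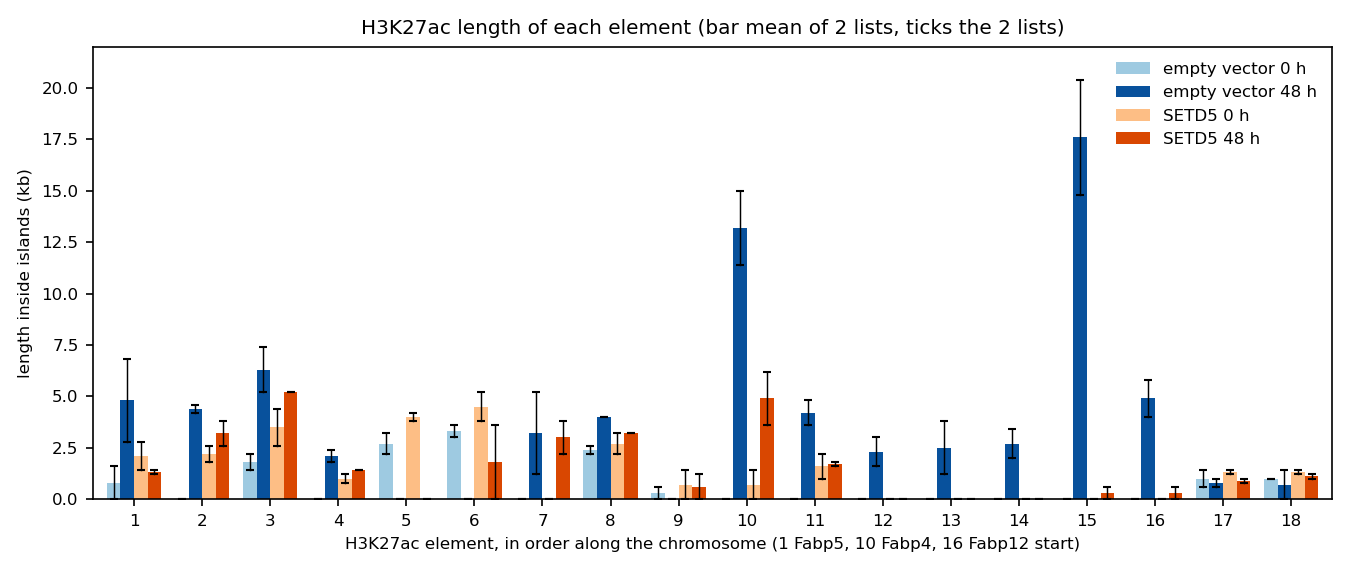
Length inside H3K27ac islands, in kb, for the 18 elements in order along the chromosome, as the mean of 2 lists per group (bars) with both lists (ticks). Elements 12 to 16, from upstream of Fabp4 to the Fabp12 start, are present in the empty-vector lists at 48 h and hold at most 600 bp in a SETD5-V5 list, and elements 5 and 6 have no empty-vector island at 48 h.

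H3K4me1 was on part of the locus before differentiation. It covered 3.96% of the window in 7 islands at 0 h and 9.06% in 15 islands at 48 h, with 1 list per time and so no spread. Of the islands at 0 h, 1 covered the whole promoter window of Fabp4 and another, chr3:10211201-10215000, covered the upstream stretch printed above, at a time when no empty-vector list had H3K27ac at either place. At 48 h the upstream island was longer, 5600 against 3800 bp, and rose in rank within its list, from 33.8% of islands scoring higher to 8.95%. The island at the start moved into the gene, leaving 125 of the 1101 promoter bases covered. Fabp12 had no H3K4me1 at 0 h and 4 islands of 1000 to 2600 bp within the gene at 48 h. Fabp5 had none at 0 h and 1 of 2800 bp inside the gene at 48 h. The promoters of 0 members gained H3K4me1, against 7.49% of all genes.

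The 10 elements that gained H3K27ac in empty-vector cells differed in H3K4me1 at 0 h, from a list labelled as SETD5 virus. Of the 5 that were also present in both SETD5-V5 lists at 48 h, 4 overlapped H3K4me1 at 0 h, namely the Fabp4 element, the one 20.4 kb upstream of it, and elements 4 and 7. Of the other 5, which run from 28.4 kb upstream of Fabp4 to the Fabp12 start, 0 did. In SETD5-V5 cells at 0 h, element 4 and the one 20.4 kb upstream of Fabp4 already had H3K27ac in both lists. So did element 2, which had no H3K4me1 then. The Fabp4 element had 1400 bp in replicate A only, outside its H3K4me1 islands, and element 7 and the other 5 had none. Over all chromosomes, an induced island was an empty-vector H3K27ac island at 48 h with no overlap in the 0 h list of its letter. A counterpart was an overlapping H3K27ac island in the SETD5-V5 cell list of that letter at 48 h. Replicates were taken singly here, whereas the elements above needed both. In replicate A, 42.3% of the induced islands with a counterpart and 31.1% of those without one overlapped H3K4me1 at 0 h. In replicate B the shares were 41.8% and 30.4%. This split was looked for after the elements were seen, and neighbouring elements are not independent.

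SETD5-V5 binding in the window was sparse. Replicate A had 1 island at 0 h and 5 at 6 h, covering 1.03% and 4.17% of the window, and replicate B had 0 and 1, covering 0% and 0.463%. The times overlapped, and the full lists also grew, from 16054 and 6666 islands to 35573 and 27220. The single island that both replicates shared at 6 h was in the Fabp4 gene body, over chr3:10205601-10207800 in A and chr3:10205201-10207000 in B, and neither list had it at 0 h. The part common to both spans an exon and parts of the introns beside it, from 1.58 to 2.98 kb inside the gene. It was of middle to low rank, with 60.1% of islands in A and 95.5% in B scoring higher. No H3K4me1 island overlapped the part common to both lists at 0 h.

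By count, 1 member had a gene-body SETD5-V5 island in both lists at 6 h and in neither at 0 h, against 9.86% of all genes. Promoter islands in both lists at 6 h were seen at 0 members, against 18.2%. Fabp5 carried SETD5-V5 over its start in replicate A at both times, with 4000 bp at 0 h and 5600 bp at 6 h, and in replicate B at neither. The other islands of replicate A at 6 h lay on the 0 h element chr3:10123401-10128000, on the intergenic element chr3:10154001-10159200, which kept H3K27ac in all 8 lists, and at the Impa1 promoter. The Fabp4 upstream stretch and the Fabp12 elements held no SETD5-V5 island in any of the 4 lists.

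Other genes place the cluster in context. Of the neighbours in the window, Impa1, an inositol monophosphatase, had promoter H3K27ac in all 8 lists, Zfand1 and Gm9833 in 7 and 6, and Slc10a5 in none. Of 10 other genes of the same lipid-binding family, 0 gained a promoter island in empty-vector cells in both replicates. Of 15 adipocyte genes, 9 already had a promoter island in both empty-vector lists at 0 h and so could not gain one. Another 4 gained a promoter island (Adipoq, Plin1, Cidec and Slc2a4), against 1.85% of all genes. Of these 4, 2 (Adipoq and Slc2a4) lacked it in both SETD5-V5 lists at 48 h. Within 10 kb of the start, 13 of the 15 had more H3K27ac in empty-vector cells at 48 h than at 0 h, against 20% of all genes. At 48 h, 11 had less with SETD5-V5, against 16.9%. As a check of the cells, all 7 fibroblast and preadipocyte markers and 0 of 7 markers of other cells had a promoter island in both empty-vector lists at 0 h.

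The genes most like Fabp4 in H3K27ac were found by the mean absolute difference in island length within 10 kb of the start over the 8 lists, among genes more than 100 kb away. They were Klra7 with 0.75 kb, Plin1, the coat protein of fat droplets, with 0.9 kb, then Cd33, Krt13 and Fam110c with 1.01 to 1.08 kb, against a median of 4.7 kb over all genes. Klra7, the closest, had 16.4 and 11 kb in empty-vector cells at 48 h and 5.8 and 6.8 kb with SETD5-V5, and 0 kb in the 4 lists at 0 h. Plin1 had 13.5 and 12.7 kb in empty-vector cells at 48 h and 4.26 and 3.86 kb with SETD5-V5, and 0 kb in the 4 lists at 0 h.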

How the data were processed

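Per the study's methods and the labels, the authors aligned reads of 36 bp with ELAND or Bowtie2 against mm9, then called islands in each library alone with SICER or SICER2 (E-value 100, window 200 bp, gap 400 bp, or 600 bp for SETD5). The deposited lists give the position of each island and the caller's score, which was read only as a rank within its own list. Read counts were not used here, so the depth behind single islands is unknown.

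Islands were intersected (at least 1 bp) with promoters (1000 bp upstream to 100 bp downstream), gene bodies and 10 kb around start sites from GENCODE vM1 in Python 3.11.15 with numpy 2.4.6 and plotted with matplotlib 3.10.9. Coordinates count from 1. Coverage code was tested on simulated data. H3K27ac elements are merged overlapping islands of the 8 lists. A call asked for both replicates. Groups came from the labels, and day 2 is written 48 h. Motifs were searched on both strands of NCBIM37, which is mm9.

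The members and lists were chosen with earlier results of these data known. Genes named are the members, their protein-coding neighbours, the lipid-binding family, adipocyte and marker lists, and the 5 genes most like Fabp4. Alternatives were a score limit, equal island numbers, a 20 kb margin, merged islands, other promoter limits, 50% overlap and leaving out a replicate. Some items of these lists and sequences are not reported here.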

Additional observations from a re-analysis of the deposited data

Results flagged for a closer look

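At Fabp5, H3K27ac rose with time in empty-vector cells and did not rise in SETD5-V5 cells. The element over its start and the 10 kb around the start hold the same islands and give the same values. From 0 h to 48 h empty-vector cells gained 6.8 kb in replicate A and 1.2 kb in replicate B, whereas SETD5-V5 cells changed by -0.2 and -1.4 kb. The -0.2 kb of replicate A is the width of a single caller window of 200 bp. In SETD5-V5 cells a value of 1.4 kb occurred at both times, so the times were not separated. The mean changes differed by 4.8 kb, and the difference was not tested.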

How the results depend on the processing

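No paired test was run, as no result here was tested, and the differences within replicates A and B are given as values. The sample titles give only the letter, so whether A and B are pairs across vectors and times is not known. Of 46 values recomputed under alternatives, including leaving out a replicate, 41 stayed within the spread between replicates of the reported value or, for counts, within 1.5 times it. For a coverage share with 2 replicates per group, leaving out a replicate cannot move the difference beyond that spread. Those values were therefore bound to fall within it, and nothing about stability is read from them. With only islands above the median score of their list, the 48 h minus 0 h difference in SETD5-V5 cells turned to -0.360 points. The H3K4me1 difference was 3.86 points with the same limit, 6.02 with a 20 kb margin and 4.99 with islands within 1000 bp merged. With the score limit, 3 promoters (Fabp4, Fabp5 and Fabp12) held an empty-vector island at 48 h and none with SETD5-V5, in place of 1. Leaving out a replicate gave 11.8 to 19.3 points for the empty-vector difference, 0.823 to 0.875 for SETD5-V5 cells, -15.7 to -7.41 between vectors at 48 h, 2.73 to 3.55 at 0 h and 0.463 to 3.14 for SETD5-V5 binding. Without replicate A the binding difference was thus 0.463 points against 1.80 with both, and it was 0 when lists were cut to equal numbers of islands. The count of promoters gaining H3K27ac in empty-vector cells was 3, with Fabp5 added, under the score limit, with equal numbers and without replicate B, and 2 otherwise.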
